A study of Mus musculus with 8 samples.

Results

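Tendon and cartilage-type connective tissue genes were examined in PDGFRβ+ fractions sorted from mouse skeletal muscle, which the study named pericytes and SMCs. The 8 genes Scx, Tnmd, Mkx, Thbs4, Comp, Cilp, Cilp2 and Chad were chosen by symbol from the 37979 genes listed, and each symbol matched 1 gene. Hindlimb muscles of Ai14+/-;SM22α-Cre+ mice of both sexes, aged 3 to 4 months, gave 4 libraries of pericytes, sorted as PDGFRβ+tdTomato- cells, and 4 libraries of SMCs, sorted as PDGFRβ+tdTomato+ cells. All animals of both groups carried the Ai14 reporter and the Cre transgene, and no untreated or Cre-negative group was used here. The SM22α promoter drives Cre, so tdTomato marks any cell that has ever used that promoter, and cells from multiple sorts were combined into each library. CD31+, CD45+ and DAPIhigh cells were gated out.

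Tendons and ligaments are built by fibroblast-like cells, the tenocytes, that lay down parallel collagen fibrils. Scx (scleraxis) and Mkx (mohawk) encode transcription factors of tendon cells, and Tnmd (tenomodulin) encodes a membrane glycoprotein of mature tenocytes whose expression in tendon depends on scleraxis. Thbs4, Comp, Cilp, Cilp2 and Chad encode secreted matrix proteins found in tendon, cartilage or both, and muscle fibers are anchored to tendon through such matrix.

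All 8 genes had a higher mean in SMCs than in pericytes, and 7 of them passed the test. Values are FPKM, fragment counts scaled to transcript length and to the reads mapped in a library, and the test was limma on log2(FPKM + 1) with Benjamini-Hochberg adjustment over the 27414 genes with a value above 0 in any library. In this comparison 11.2% of all genes tested were higher in SMCs at a q value below 0.05, or 19.5% of the 13612 genes whose mean reached 1 FPKM, as those of all 8 genes did. The same 7 genes also exceeded a log2 difference of 2, as did 2.66% of all genes tested. In these 7 genes every SMC library lay above every pericyte library, which held for 12.5% of all genes tested and for 20.8% of those whose mean reached 1 FPKM. The median log2 difference, SMCs minus pericytes, was 3.05 over the 8 genes and -0.02 over all genes tested. In bulk RNA, more cells of a type and more RNA per cell cannot be told apart.

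**Figure D1:**
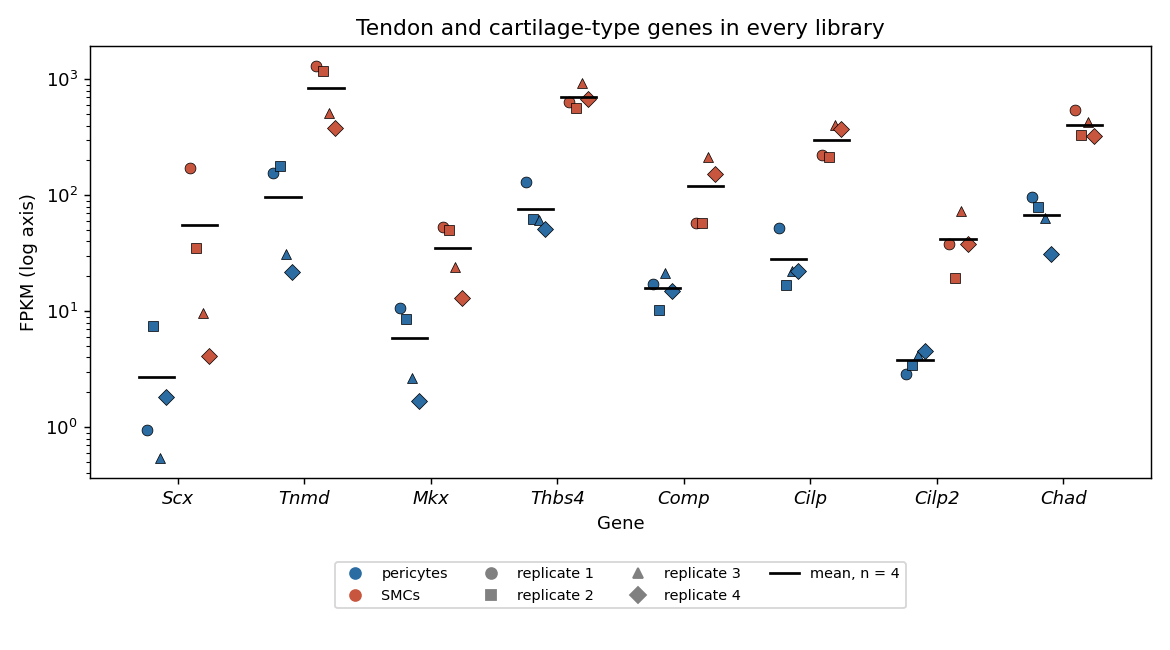
FPKM on a log axis for the 8 genes in each of the 4 pericyte and 4 SMC libraries. Symbols mark the replicate numbers and black lines the means (n = 4), and the groups overlap for Scx only, where the lowest SMC library (4.11 FPKM) lies below the highest pericyte library (7.48 FPKM).

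The transcription factor gene Scx has 2 exons between 76287868 and 76289898 of chromosome 15 (plus strand, with all gene positions in NCBI Build 37). It had 0.944, 7.48, 0.544 and 1.83 FPKM in pericyte replicates 1 to 4. It had 172.6, 35.5, 9.74 and 4.11 FPKM in SMC replicates 1 to 4, so SMC replicate 1 stood above the others and SMC replicate 4 lay inside the pericyte range. The log2 difference was 3.06 (standard error 1.13) and did not pass (limma q = 0.104). It passed with a filter of 1 FPKM in at least 4 libraries (limma q = 0.0276), and without SMC replicate 1 the difference was 2.11 (limma q = 0.152).

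Scx sits inside an intron of Bop1, a ribosome biogenesis gene on the opposite strand, and no exon base is shared between them. Bop1 went the other way, with 30.5 to 36.4 FPKM in pericytes and 11.5 to 16.7 FPKM in SMCs (log2 difference -1.25, limma q = 0.000520). Strand-aware counting is not stated in the sources used here.

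Mkx spans 6934964 to 7004777 of chromosome 18 (minus strand). Pericyte replicates 1 to 4 had 10.7, 8.54, 2.65 and 1.68 FPKM of Mkx. SMC replicates 1 to 4 had 53.7, 50.4, 24.1 and 13.1 FPKM. The groups did not overlap, although the lowest SMC library was only 1.23 times the highest pericyte library. The log2 difference was 2.46 (standard error 0.63, limma q = 0.0307). The call was lost without pericyte replicate 3 (q = 0.0810) or 4 (q = 0.0672), without SMC replicate 1 (q = 0.0758), 2 (q = 0.0791) or 3 (q = 0.0603), and with all listed genes tested (limma q = 0.0693).

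Tnmd, at 130385519 to 130400116 of chromosome X (plus strand), was the highest of the 8 genes in SMCs by its mean. It had 156.5, 178.8, 31.0 and 21.9 FPKM in pericyte replicates 1 to 4 and 1315, 1176, 516 and 383 FPKM in SMC replicates 1 to 4. Every SMC library was at least 2.14 times the highest pericyte library. By its SMC mean, Tnmd ranked 121 among the 37979 genes listed, against 1359 by its pericyte mean. SMCs exceeded pericytes by 3.46 on the log2 scale (standard error 0.81, limma q = 0.0206). Its q value was 0.0554 without pericyte replicate 3, 0.0546 without SMC replicate 1 and 0.0563 without SMC replicate 2.

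The genes of secreted matrix proteins gave smaller q values. Thbs4, which encodes a thrombospondin of tendon and of its junction with muscle, has 22 exons between 93521545 and 93564773 of chromosome 13 (minus strand). It had 129.7, 62.0, 60.9 and 51.2 FPKM in pericyte replicates 1 to 4 and 639, 571, 933 and 680 FPKM in SMC replicates 1 to 4. The lowest SMC library was 4.40 times the highest pericyte library, the widest such gap among the 8 genes. Thbs4 had the smallest q value of the 8 genes, with a log2 difference of 3.27 (standard error 0.30, limma q = 0.000375).

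Comp encodes cartilage oligomeric matrix protein, a thrombospondin relative that binds collagen, and spans 72897447 to 72905964 of chromosome 8 (plus strand). It had 17.3, 10.4, 21.5 and 14.9 FPKM in pericyte replicates 1 to 4 and 57.6, 57.5, 214 and 153.6 FPKM in SMC replicates 1 to 4. SMC replicates 3 and 4 were well above SMC replicates 1 and 2, and all were above the pericyte libraries. The log2 difference was 2.64 (standard error 0.48, limma q = 0.00732). The longest run of identical bases between annotated Thbs4 and Comp transcripts was 26 bases.

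Cilp encodes cartilage intermediate layer protein, a secreted glycoprotein that binds growth factors, and spans 65112987 to 65128413 of chromosome 9 (plus strand). It had 51.8, 16.8, 22.2 and 22.2 FPKM in pericyte replicates 1 to 4 and 221, 216, 401 and 373 FPKM in SMC replicates 1 to 4. The groups were far apart, with the lowest SMC library 4.16 times the highest pericyte library. On the log2 scale the difference was 3.45 (standard error 0.38, limma q = 0.000808).

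Its paralogue Cilp2 spans 72404268 to 72411586 of chromosome 8 (minus strand), and was lower than Cilp in all 8 libraries. It had 2.87, 3.48, 4.18 and 4.58 FPKM in pericyte replicates 1 to 4 and 38.2, 19.5, 73.2 and 37.8 FPKM in SMC replicates 1 to 4. The pericyte values were close together, with the highest 1.60 times the lowest. Cilp2 had a log2 difference of 3.04 (standard error 0.36, limma q = 0.00115). No run of identical bases between annotated Cilp and Cilp2 transcripts was longer than 14 bases.

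Chad encodes chondroadherin, a leucine-rich repeat protein that binds collagen and integrins, and spans 94426361 to 94430441 of chromosome 11 (plus strand). It had 97.4, 79.5, 63.2 and 31.2 FPKM in pericyte replicates 1 to 4 and 541, 331, 426 and 327 FPKM in SMC replicates 1 to 4. The groups did not overlap, and the log2 difference was 2.65 (standard error 0.36, limma q = 0.00200). Chad lies within Acsf2 on the opposite strand, shares no exon base with it, and Acsf2 had at most 1.58 FPKM in any library.

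**Figure D2:**
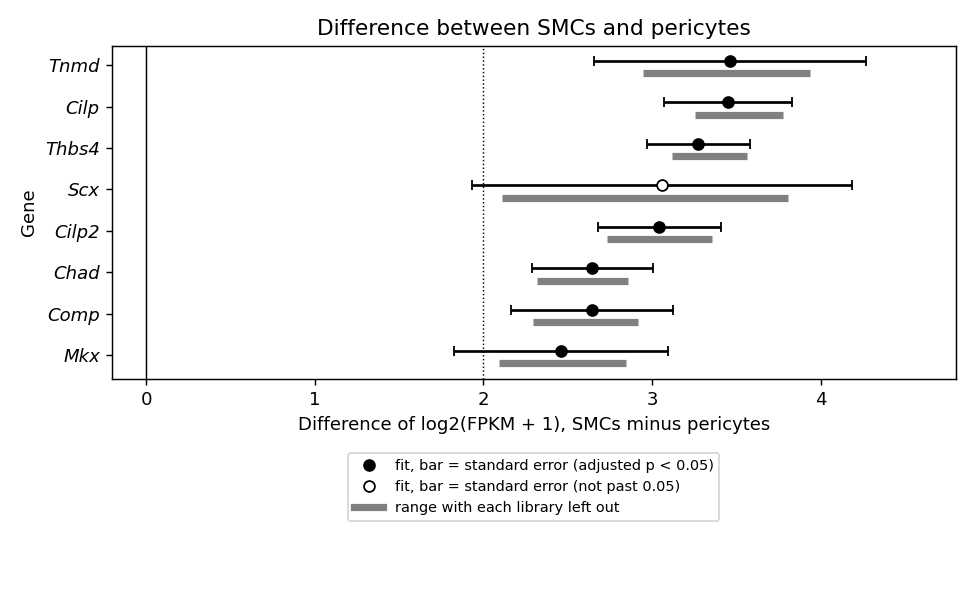
Difference of log2(FPKM + 1), SMCs minus pericytes, for the 8 genes, with the standard error (n = 4 and 4) and, in grey, the range with each library left out in turn. Every point and every grey bar lies above 2.0, and the open symbol marks Scx, which did not pass at a q value of 0.05.

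FPKM are scaled to length, and levels were set beside each other between genes on that basis alone. Other differences between genes in how well they are measured were not corrected. In SMCs the means ran from Tnmd (848 ± 466 FPKM, SD, n = 4) through Thbs4 (706 ± 158), Chad (406 ± 101), Cilp (303 ± 98.0), Comp (121 ± 77.1), Scx (55.5 ± 79.3) and Cilp2 (42.2 ± 22.4) to Mkx (35.3 ± 19.9). Of the neighbours in this order, Thbs4 above Chad and Cilp above Comp differed by more than the SD of their difference within libraries, each in 4 of 4 libraries. The other neighbours did not. Scx owed its place in SMCs to replicate 1 (172.6 FPKM). It was above Cilp2 in 2 of 4 SMC libraries, with a mean log2 difference of -0.68, Scx minus Cilp2. In pericytes the order by mean was Tnmd (97.1 ± 82.1 FPKM, SD, n = 4), Thbs4 (75.9 ± 36.2), Chad (67.8 ± 28.1), Cilp (28.3 ± 15.9), Comp (16.0 ± 4.67), Mkx (5.89 ± 4.40), Cilp2 (3.78 ± 0.76) and Scx (2.70 ± 3.23). Here Chad above Cilp, Cilp above Comp and Comp above Mkx exceeded that spread. By mean FPKM the 5 highest genes were in the same order in both groups. Tnmd was above Thbs4 in only 2 of 4 libraries of each group, with a mean log2 difference of -0.09 in pericytes, Tnmd minus Thbs4. Together the 8 genes made up 0.282% to 0.412% of the summed FPKM of an SMC library and 0.0191% to 0.0677% of that of a pericyte library.

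The 8 genes varied among replicates in different ways. Tnmd and Mkx were higher in replicates 1 and 2 than in replicates 3 and 4 in both groups. For Tnmd the mean of replicates 1 and 2 was 6.34 times that of replicates 3 and 4 in pericytes and 2.77 times in SMCs, and for Mkx it was 4.44 and 2.80 times. For Scx it was 3.55 times in pericytes, where replicate 2 was the highest and replicate 1 lay below replicate 4, and 15.0 times in SMCs, or 5.12 times without SMC replicate 1. Comp, Cilp and Cilp2 went the other way in SMCs, where the mean of replicates 1 and 2 was 0.313, 0.564 and 0.520 times that of replicates 3 and 4, although SMC replicates 1 and 4 of Cilp2 were almost equal. In pericytes the ratios of these 3 genes were 0.760, 1.55 and 0.725, so Cilp did not go the other way there. Thbs4 (0.750 times) and Chad (1.16 times) varied least among SMC libraries, with the highest library 1.63 and 1.65 times the lowest. Their pericyte ratios of replicates 1 and 2 to replicates 3 and 4 were 1.71 and 1.87. This division of the replicates was known from earlier results of these data, and the batch field of the labels has 1 value for all 8 libraries, so it was described and not tested.

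Within either set of replicates the 8 genes were all higher in SMCs by their means. Log2 differences ran from 2.02 (Comp) to 4.29 (Scx) in replicates 1 and 2, and 1.82 (Scx) to 4.06 (Cilp) in replicates 3 and 4.

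**Figure D3:**
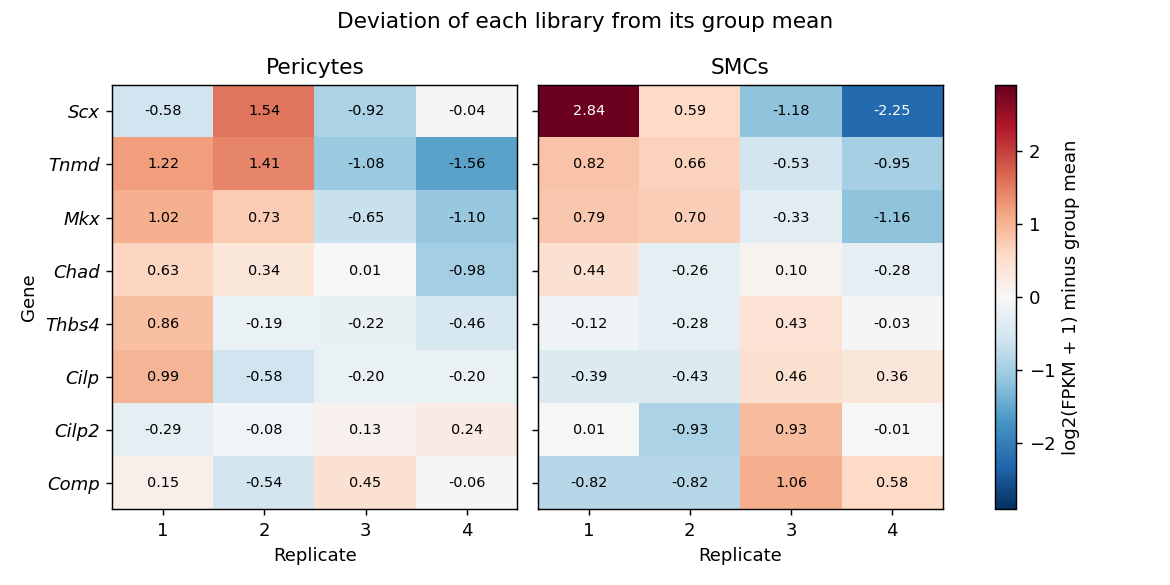
Deviation of log2(FPKM + 1) in each library from the mean of its group (4 pericyte and 4 SMC libraries), with red above and blue below the mean. Tnmd and Mkx were above the mean in replicates 1 and 2 of both groups, whereas Comp was 0.82 below the mean in SMC replicates 1 and 2 and above it in SMC replicates 3 and 4.

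Genes with the most similar profiles were ranked by the root mean square (RMS) difference of log2(FPKM + 1) over the 8 libraries, each gene centred on its mean, among 13611 other genes with a mean that reached 1 FPKM. Closest to Tnmd were Kera (RMS 0.26), which encodes the proteoglycan keratocan, Gm525 (0.28) and Kazald1 (0.29). Kera had 110.9, 82.6, 25.9 and 13.7 FPKM in pericyte replicates 1 to 4 and 762, 662, 356 and 192 FPKM in SMC replicates 1 to 4. Its higher values in replicates 1 and 2 of both groups follow from the ranking, which picks genes by likeness to Tnmd in these same libraries. Closest to Mkx were Fkbp14 (0.29), D0H4S114 (0.29) and Tnfrsf11b (0.34).

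Prg4, which encodes the joint lubricant lubricin, was closest to both Thbs4 (RMS 0.17) and Cilp (0.24). Thbs4 was followed by the matrix genes Efemp1 (0.19) and Mmp2 (0.23), and Cilp by Thbs4 itself (0.26) and Col3a1 (0.28). Comp was closest to the fibronectin gene Fn1 (0.20), Prelp (0.23) and Aebp1 (0.24). Chad was closest to Col12a1 (0.21), a fibril-associated collagen, Tmem53 (0.25) and Bdh2 (0.27), and Cilp2 to Penk (0.24), Col8a2 (0.35) and Vasn (0.37). Scx had no close match, with Prrx2 (0.95), Fam159b (0.98) and Kdelr3 (0.99) as the nearest. Among the 8 genes themselves, Thbs4 and Cilp were the most alike (0.26), and Scx and Comp the least (2.10).

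Promoter sequences are shown for Tnmd, which had the highest mean of the 8 genes in both groups, and for Thbs4 and Cilp, the most similar of the 8 genes. RefSeq promoters (build GRCm38.p6) matched 5 of the 8 genes, which were Tnmd, Thbs4, Cilp, Cilp2 and Chad. Each run is the 250 bases before the start of the gene, 5′ to 3′ on the strand of the gene, at chrX:133850758-133851007 (plus strand) for Tnmd, chr13:92794819-92795068 (minus strand) for Thbs4 and chr9:65264930-65265179 (plus strand) for Cilp. Capitals mark each CANNTG, the E-box bound by basic helix-loop-helix factors such as scleraxis.
Tnmd: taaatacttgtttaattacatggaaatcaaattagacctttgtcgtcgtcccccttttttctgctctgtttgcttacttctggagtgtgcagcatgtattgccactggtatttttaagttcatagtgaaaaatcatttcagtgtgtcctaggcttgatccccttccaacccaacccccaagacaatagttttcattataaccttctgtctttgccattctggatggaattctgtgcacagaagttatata
Thbs4: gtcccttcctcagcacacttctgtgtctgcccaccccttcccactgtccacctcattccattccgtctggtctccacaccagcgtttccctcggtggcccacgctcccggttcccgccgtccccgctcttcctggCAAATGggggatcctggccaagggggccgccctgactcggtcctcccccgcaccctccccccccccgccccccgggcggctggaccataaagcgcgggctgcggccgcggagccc
Cilp: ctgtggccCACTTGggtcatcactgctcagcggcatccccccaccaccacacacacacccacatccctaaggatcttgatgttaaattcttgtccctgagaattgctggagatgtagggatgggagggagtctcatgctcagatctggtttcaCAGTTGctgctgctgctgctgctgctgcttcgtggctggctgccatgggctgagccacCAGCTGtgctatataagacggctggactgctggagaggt

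An E-box was found in 4 of the 5 promoters, and 66.2% of 32851 mouse promoters of the same length hold one. Thbs4 held 1, which begins 115 bases before the start, and Cilp held 3, beginning 242, 97 and 39 bases before it. Cilp2 held 1 (156 bases before) and Chad held 1 (49 bases before), whereas these letters were not in the Tnmd window. The longer motif ACANNTGT, which contains an E-box and is a motif of mohawk-type homeodomain proteins, was in 0 of the 5 windows and in 6.31% of all promoters. TATAAA, searched on both strands, was in the Chad window 28 bases before the start and in 12.4% of all promoters. CANNTG and ACANNTGT read the same on both strands.

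Other tendon and ligament genes were counted in a list of 25. At a q value below 0.05, 19 were higher in SMCs, as were 11.2% of all genes tested, or 19.5% of those whose mean reached 1 FPKM. In pericytes 1 was higher, as were 10.6% of all genes tested. The other 5 did not pass, and the median log2 difference of the list was 2.69. Lum, which encodes the proteoglycan lumican, had 51.1 to 139.5 FPKM in pericytes and 1131 to 1971 FPKM in SMCs (log2 difference 4.11, limma q = 0.000262). Angptl7 followed (log2 difference 3.73, limma q = 0.00251), then the fibrillar collagen genes Col3a1 (3.51, limma q = 0.000622) and Col1a1 (3.48, limma q = 0.00502). The exception was Dcn, the gene of decorin, which had 509 to 1165 FPKM in pericytes and was listed at 0 in every SMC library. An exact 0 in these values can be a failed estimate, since the ubiquitin gene Ubb, used by all cells, was also at 0 in each of the 8 libraries.

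Genes of cartilage gave a different count. Of 24 such genes, 7 were higher in SMCs, 0 passed as higher in pericytes and 17 did not pass, with a median log2 difference of 0.66. Among all genes tested 11.2% were higher in SMCs, or 19.5% of those whose mean reached 1 FPKM, and 10.6% were higher in pericytes. The largest differences that passed were in Cytl1 (12.5 to 33.9 FPKM in pericytes and 140.1 to 275 FPKM in SMCs, log2 difference 3.37, limma q = 0.000688) and Prg4 (3.79 to 7.71 and 43.5 to 85.8 FPKM, 3.31, limma q = 0.000252). Matn4 (log2 difference 2.10, limma q = 0.000342) and the minor fibrillar collagen gene Col11a1 (1.91, limma q = 0.00438) also passed. Chadl, Col11a2 and Fgfr3 were the other genes that passed. Pericytes were higher without overlap in 3 of the 24 genes, as in 12.1% of all genes tested. They were Col9a1, Col9a3 and Col10a1, and none of them passed. SMCs were higher without overlap in 8 of the 24 genes, as in 12.5% of all genes tested. Col10a1 had 0.101, 0.225, 7.25 and 0.106 FPKM in pericyte replicates 1 to 4 and at most 0.0921 FPKM in SMCs. Its values were thus low except in pericyte replicate 3. Fgfr3, Col9a1, Col9a3, Col10a1, Col2a1, Acan and Sox9 were named after their values were seen. Col2a1, the main collagen of hyaline cartilage, had 26.5, 11.3, 100.01 and 41.7 FPKM in pericyte replicates 1 to 4 and 6.38, 11.3, 42.1 and 27.5 FPKM in SMC replicates 1 to 4 (limma q = 0.515). Acan, which encodes aggrecan, had at most 2.08 FPKM in pericytes and 0.773 FPKM in SMCs (limma q = 0.872). The chondrocyte transcription factor gene Sox9 had 4.32 to 10.3 FPKM in pericytes and 12.7 to 55.8 FPKM in SMCs (log2 difference 1.56, limma q = 0.0688), with no overlap between the groups.

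Thbs4 and Comp belong to a family of 5 genes, of which 4 were higher in SMCs, with Thbs4 and Comp themselves among the 4. For all genes tested the share was 11.2%, or 19.5% of those whose mean reached 1 FPKM. Thbs2 (log2 difference 2.83, limma q = 0.00524) and Thbs3 (1.94, limma q = 0.00227) passed, and Thbs1 did not, with 10.7 to 78.3 FPKM in pericytes and 44.1 to 335 FPKM in SMCs (1.81, limma q = 0.233).

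**Figure D4:**
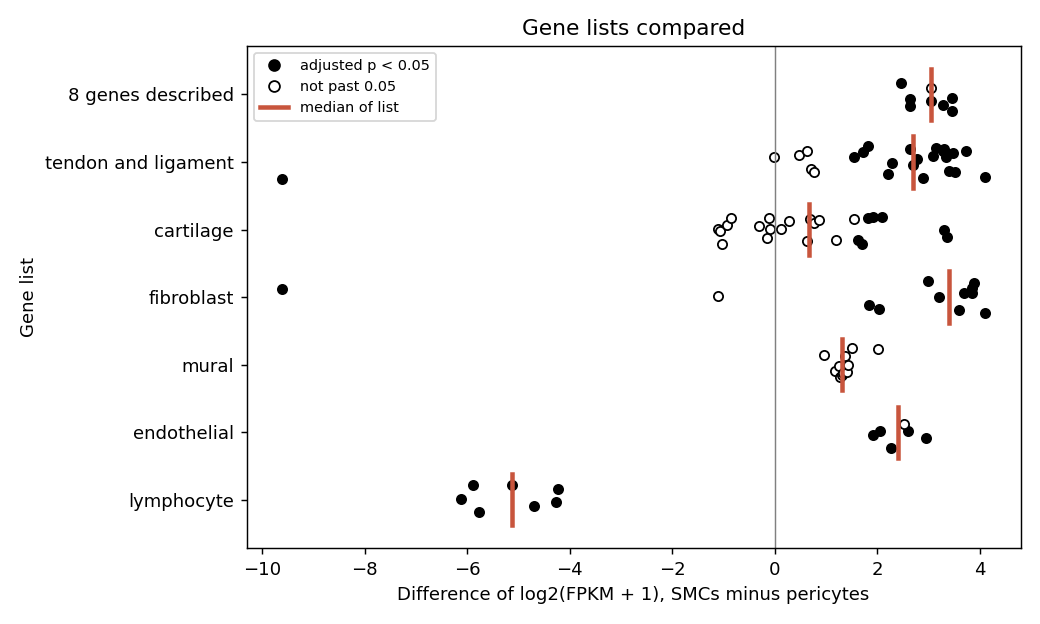
Log2 difference, SMCs minus pericytes, of each gene in 7 gene lists, with filled symbols for q values below 0.05 and red lines for the medians. The 8 genes described lie to the right, with a median of 3.05, as do most fibroblast markers (median 3.40), whereas the mural markers have a median of 1.32, and the point at the far left of 2 lists is Dcn.

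Fibroblast and endothelial markers were mostly higher in SMCs too, lymphocyte markers were higher in pericytes, and most markers in the other lists did not pass. Of 12 fibroblast markers, 10 were higher in SMCs, 1 was higher in pericytes (Dcn) and 1 did not pass, and their summed level was 4036 to 6907 FPKM in SMC libraries and 949 to 2064 FPKM in pericyte libraries. Without Dcn, which is listed at 0 in SMCs, the pericyte sums were 439 to 949 FPKM and the SMC sums were the same. Lum and Dcn are in both this list and the tendon list. Pdgfra, which marks muscle fibroblasts and was named after its values were seen, had 36.1 to 46.8 FPKM in SMCs and 1.19 to 4.26 FPKM in pericytes (log2 difference 3.60, limma q = 0.000213), and Smoc2 had 877 to 1363 and 41.6 to 126.3 FPKM. All 12 mural markers had a positive difference, SMCs minus pericytes, and 1 passed, namely Rgs5 (log2 difference 1.30, limma q = 0.0240). The SMC gene Acta2 (1.43, limma q = 0.0979), the gene of the sort marker Pdgfrb (2.02, limma q = 0.0973) and the SMC gene Myh11 (1.28, limma q = 0.577) did not pass, and the summed mural markers were 621 to 1924 FPKM in pericyte libraries and 1831 to 5888 FPKM in SMC libraries. Their part in the differences of the 8 genes was not tested.

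Of 6 endothelial markers 5 were higher in SMCs (summed level 290 to 872 FPKM against 82.4 to 130.2 FPKM in pericytes), and all 7 lymphocyte markers were higher in pericytes (2538 to 3926 FPKM against 60.3 to 136.7 FPKM in SMCs), although the gate removed CD31+ and CD45+ cells. Counts higher in SMCs were 2 of 4 for macrophage markers, 1 of 5 for satellite cell markers and 1 of 8 for Schwann cell and perineurium markers. For skeletal muscle fiber markers they were 0 of 7, with 1 higher in pericytes. Among all genes tested 11.2% were higher in SMCs, or 19.5% of those whose mean reached 1 FPKM. No marker other than Dcn was listed at 0 throughout a group. The FPKM of a library summed to 656405 to 1190435, and pericyte replicate 2 was the highest, with the other libraries at 782014 or below. Without it the log2 differences of the 8 genes were between 2.46 (Comp) and 3.94 (Tnmd), and 7 passed. Rescaling all libraries to a common sum moved the median difference of genes whose mean reached 1 FPKM from -0.05 to 0.16 and the share of called genes that were higher in SMCs from 51.2% to 63.8%, and 7 of the 8 genes passed.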

How the data were processed

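RNA of sorted pericytes and SMCs was amplified (SMART-Seq) and sequenced from Nextera XT libraries. The authors used Bowtie2, TopHat and an Ensembl annotation on NCBI Build 37 of the mouse genome, and the deposited FPKM are neither filtered nor log transformed. The program that computed FPKM is not given in the sources used here. Read depth is unknown, and counting errors could not be computed. Values were tested as log2(FPKM + 1) with limma 3.58.1 in R 4.3.3, over 27414 genes with FPKM above 0 in any library, and a q value below 0.05 was called. The test was checked on simulated data. Positions came from GENCODE version M1. Where a listed symbol had several rows, the highest was taken. Alternatives were a pseudocount of 0.1, a filter of 1 FPKM in at least 4 libraries, all listed genes, common-sum and quantile scaling, an intensity trend, a replicate block, replicates 1 and 2 against 3 and 4 as a term, and each library left out. From the gene lists, up to 6 called genes with the largest differences could be named, and 3 genes most like each of the 8. Genes and lists were chosen with earlier results of these data known. P-values measure the spread between pooled sorts. Figures used Python 3.11.15 and matplotlib 3.10.9.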

Additional observations from a re-analysis of the deposited data

How the results depend on the processing

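All 8 genes kept a higher mean in SMCs in each of the 16 alternatives. Thbs4, Comp, Cilp, Cilp2 and Chad passed in all of them. Scx, with a log2 difference of 3.06, passed with the filter of 1 FPKM in at least 4 libraries and with replicates 1 and 2 against 3 and 4 as a term. That division was taken from these data, so passing with it is no independent support. Mkx, with a log2 difference of 2.46, did not pass with all listed genes tested. With each library left out in turn, the log2 difference of Scx was 2.11 to 3.81, of Tnmd 2.94 to 3.94 and of Mkx 2.09 to 2.85, and the number of the 8 genes that passed was 5 to 7. The cause was not tested. The number of cartilage genes higher in SMCs was 5 to 9 over all settings, of other tendon and ligament genes 17 to 20, and of the thrombospondin family 4 to 5.

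Over 13612 genes, the deviations of same-numbered pericyte and SMC libraries correlated at 0.327 on average, and at 0.0794 to 0.474 over the 4 pairs. Libraries of different number correlated at -0.451 to 0.538. Of 8 libraries, 5 correlated best with their own number, so the libraries were not taken as paired. Variation shared by same-numbered libraries therefore stayed in the error of the main fit. With the replicate block 7 of the 8 genes passed, the same number as without it, and 3175 genes over the whole table were higher in SMCs, against 3060 without it. Genes higher in SMCs were 8 in the cartilage list, which also had 2 higher in pericytes, 20 in the tendon and ligament list and 5 in the thrombospondin family. Of the 12 mural markers 5 were higher in SMCs with the block, against 1 without it. Among the 7 skeletal muscle fiber markers 1 was higher in SMCs and 0 in pericytes with the block, against 0 and 1 without it. Since read depth is unknown, the precision of low values such as those of Scx in pericytes cannot be given.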
